A study of Sus scrofa with 9 samples.

Results

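HMGCS1 and SQLE, enzymes of cholesterol synthesis, were followed in a back muscle, the longissimus dorsi, of finishing pigs fed different amounts of lysine. They are the 2 of 5 named cholesterol synthesis genes (HMGCS1, SQLE, FDFT1, LSS and DHCR7) that were the only gene symbol of a probe set in the probe-to-gene table, out of 12361 genes named in all. FDFT1, LSS and DHCR7 were not analysed here. Each of the 2 genes had 1 probe set, numbered 15242729 for HMGCS1 (Entrez gene 100524223) and 15282785 for SQLE (Entrez gene 100113409). That probe set is therefore the gene's value, and no other probe set checks it.

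The animals were 9 male pigs of about 95 kg at the start, and each gave 1 whole-transcript array. For 5 weeks 3 pigs ate a lysine-deficient diet (pigs 1, 2 and 3), 3 a lysine-excess diet (pigs 9, 10 and 11) and 3 a lysine-adequate diet (pigs 5, 6 and 7). The labels name no genotype, breed, age or further agent, and do not give the lysine content of the diets. Values are the authors' processed expression values, taken as log2 from their range of 3.097 to 14.303.

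Cholesterol is built from acetyl-CoA. HMGCS1 condenses acetoacetyl-CoA with acetyl-CoA to HMG-CoA, the precursor of mevalonate, and phosphorylated mevalonate then yields the isoprene units that are joined to farnesyl diphosphate and on to squalene. SQLE, squalene epoxidase, adds oxygen to squalene and is a rate-controlling step of the sterol part of the pathway, after which lanosterol is formed and trimmed to cholesterol. In mammalian cells the genes of this pathway are commonly switched on together by the transcription factor SREBP2, which the proteins SCAP and INSIG1 hold back in the endoplasmic reticulum when sterols are plentiful. Most cholesterol synthesis takes place in liver, but muscle fibres make isoprenoids through the same early steps.

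One array, that of excess pig 11, was unlike the rest. Over all probe sets it correlated with each other array at between 0.904 and 0.956, while the closest arrays reached 0.992, and the SD over its probe sets was 1.82, against 1.93 to 1.99 elsewhere. Differences of HMGCS1, SQLE and the sterol gene lists that include this pig are therefore given with and without it. The F and permutation tests below include pig 11. Array quality weights were lowest for excess pig 10, at 0.19, and pig 11, at 0.22, against 0.68 to 2.46 elsewhere. Values without pig 11 still include pig 10. The 3 measured skeletal muscle markers, ACTA1, MYH1 and MYH7, averaged between 12.54 and 12.85 in every pig, near the top of the scale, so the tissue matched its label. CKM, MB, DES and TTN were not analysed here.

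HMGCS1 did not separate the diets. Its log2 value was 6.99, 6.96 and 7.50 in deficient pigs 1, 2 and 3, 7.26, 6.92 and 6.40 in excess pigs 9, 10 and 11, and 7.04, 7.33 and 6.94 in adequate pigs 5, 6 and 7. Deficient pig 3 was the highest of all 9 and excess pig 11 the lowest, and the 3 groups overlapped. The group means were 7.15 ± 0.30 with deficient, 6.86 ± 0.43 with excess and 7.10 ± 0.20 with adequate lysine (SD, n = 3 pigs each). Ordered by mean, deficient pigs came first, adequate pigs next and excess pigs last. No neighbours in this order differed by more than the larger of their SDs. In limma the log2 difference was 0.05 ± 0.24 (SE) between deficient and adequate pigs, -0.24 ± 0.24 between excess and adequate pigs and 0.29 ± 0.24 between deficient and excess pigs. The adjusted p-values over all probe sets were 1.00, 0.762 and 0.872 (limma, Benjamini-Hochberg). For the deficient against adequate comparison the 95% interval ran from -0.51 to 0.61, that is from 1.43-fold lower to 1.52-fold higher. A change of any size within these bounds was not excluded here.

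SQLE did not separate the diets either. Its log2 value was 4.49, 4.45 and 4.87 in deficient pigs 1, 2 and 3, 4.76, 4.75 and 5.54 in excess pigs 9, 10 and 11, and 4.68, 4.99 and 4.72 in adequate pigs 5, 6 and 7. Excess pig 11 lay above all other pigs, deficient pigs 1 and 2 lay below all others, and the groups again overlapped. The means were 4.61 ± 0.23 with deficient, 5.02 ± 0.45 with excess and 4.79 ± 0.17 with adequate lysine (SD, n = 3 pigs each). The order was thus excess, adequate, deficient, and no neighbours differed by more than the larger of their SDs. Deficient minus adequate was -0.19 ± 0.23 (SE), excess minus adequate 0.22 ± 0.23 and deficient minus excess -0.41 ± 0.23, with adjusted p-values of 1.00, 0.762 and 0.872 (limma, Benjamini-Hochberg). The interval of the last difference, -0.94 to 0.12, reached from 1.92-fold lower to 1.09-fold higher. The mean of SQLE over all arrays, 4.81, was under the array-wide median of 5.07, and its signal over background was not tested, which limits how closely a difference at this level can be read.

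**Figure D1:**
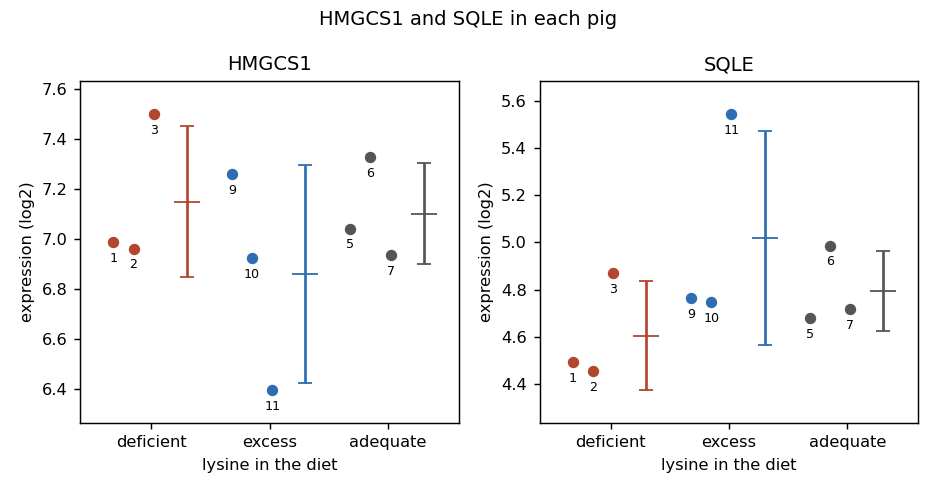
Log2 expression of HMGCS1 (left) and SQLE (right) in each pig, with the pig number under each point, by lysine in the diet; the bar beside the points is the group mean with its SD (n = 3 pigs). Excess pig 11 is the lowest pig for HMGCS1, at 6.40, and the highest for SQLE, at 5.54.

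Across the 3 diets together, the F test gave adjusted p = 0.932 for both genes in limma. Its unadjusted p was 0.476 for HMGCS1 and 0.257 for SQLE. An exact permutation test over the 1680 arrangements of the 9 arrays gave p = 0.521 for HMGCS1 and p = 0.339 for SQLE (F statistic, 2 genes tested, n = 3 pigs per diet), where 0.0036 is the smallest value it allows. These p-values do not show that the diets acted alike. Over all 27558 probe sets none passed an adjusted p of 0.05 in any of the 3 comparisons or in the F test (0%). At an unadjusted p below 0.05 there were 2.54% of probe sets in the F test, 1.85% between deficient and adequate, 3.56% between excess and adequate and 4.08% between deficient and excess pigs. HMGCS1 and SQLE were among none of these.

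Without excess pig 11 the excess mean lay close to the adequate mean on both genes. Excess minus adequate became -0.01 for HMGCS1, in place of -0.24, and -0.04 for SQLE, in place of 0.22. Deficient minus excess shrank in the same way, to 0.06 in place of 0.29 for HMGCS1 and to -0.15 in place of -0.41 for SQLE. In pig 11, HMGCS1 lay 0.69 below the mean of excess pigs 9 and 10 (a deviation of -0.69), and SQLE lay 0.79 above it.

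Pig 11 differed from the other excess pigs by an amount that changed with level. Among all probe sets in the level range of HMGCS1 (mean 6.36 to 7.39) the median deviation of pig 11 was -0.41 with quartiles of -0.71 and -0.08, so HMGCS1 was within the quartiles of its range. In the range of SQLE (mean 4.72 to 5.07) the median was 0.05 with quartiles of -0.12 and 0.38, and SQLE lay above the upper quartile. FDPS at -0.82, TM7SF2 at -0.76, NSDHL at -0.45, PMVK at -0.26 and MVK at -0.13 lay below the lower quartile of their ranges, and HSD17B7 at 0.89 above the upper one. The part of this array-wide deviation in the values of HMGCS1 and SQLE was not tested.

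**Figure D2:**
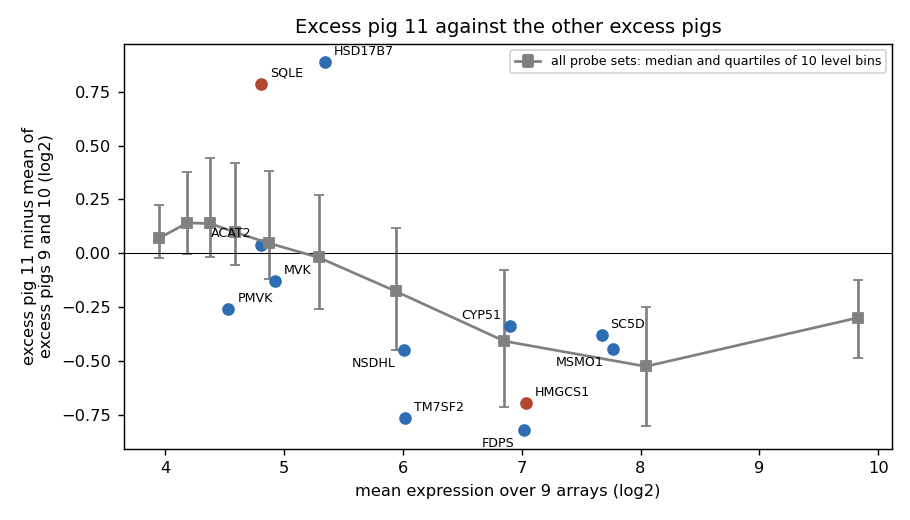
Deviation of excess pig 11 from the mean of excess pigs 9 and 10 (log2, vertical axis) against the mean over 9 arrays (log2, horizontal axis). Grey squares and bars are the median and quartiles of all probe sets in 10 level bins, red points are HMGCS1 and SQLE and blue points are the other measured sterol enzymes. The median falls to -0.53 in the ninth bin, and SQLE at 0.79 and HSD17B7 at 0.89 stand above it.

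In the deficient pigs, numbers 1 and 2 differed from number 3. Against the mean of the adequate pigs, SQLE stood at -0.30 and -0.34 in pigs 1 and 2 and at 0.07 in pig 3, and HMGCS1 at -0.11, -0.14 and 0.40. CYP51, the lanosterol demethylase, showed the same split, at -0.34, -0.34 and 0.03. Pig 3 was also the highest deficient pig for ACAT2 (-0.05, -0.26 and 0.16) and PMVK (-0.27, -0.26 and -0.08). So it was for FDPS (-0.23, -0.41 and -0.11) and SC5D (-0.19, -0.45 and -0.13). NSDHL, at -0.30, -0.03 and 0.03, had pig 3 highest as well, with pig 2 close to it. MSMO1, which removes methyl groups from the sterol ring, stood at -0.46, -0.19 and -0.04. Pig 3 was not highest for TM7SF2, a sterol reductase, at -0.74, -0.19 and -0.20. Nor was it for MVK, at 0.12, 0.20 and 0.13, or HSD17B7, at -0.02, -0.06 and -0.23. Without deficient pig 3, HMGCS1 turned to -0.13 between deficient and adequate pigs, and SQLE moved to -0.32. The array of pig 3 itself differed from those of pigs 1 and 2. Its SD over all probe sets was 1.99, against 1.94 in both. Its quality weight was 0.90, against 1.73 in pig 1 and 2.46 in pig 2. The part of such array-wide differences in this split was not tested.

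Of the 15 other mevalonate and sterol enzymes in the list, 10 were measured, which with HMGCS1 and SQLE makes 12. Between deficient and adequate pigs 10 of these 12 had a lower mean in the deficient pigs, and 2, HMGCS1 and MVK, a higher one. Their median log2 difference was -0.19, beside a median of 0.01 over all probe sets, of which 47.0% were lower. None passed an adjusted p of 0.05 in limma over all probe sets, none reached an unadjusted p below 0.05, and for none did the deficient pigs lie wholly above or below the adequate pigs, which held for 6.84% of all probe sets. In whole muscle, fewer cells of a type and less RNA per cell cannot be told apart.

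Read along the pathway, the differences between deficient and adequate pigs were small at each step. ACAT2, which makes acetoacetyl-CoA for HMGCS1, differed by -0.05 ± 0.12 (SE). MVK, mevalonate kinase, differed by 0.15 ± 0.08 and PMVK, the kinase that follows it, by -0.20 ± 0.10. FDPS, which makes farnesyl diphosphate, differed by -0.25 ± 0.22. Past SQLE, the values were -0.21 ± 0.14 for CYP51, -0.38 ± 0.25 for TM7SF2 and -0.23 ± 0.17 for MSMO1. NSDHL and HSD17B7, which act with MSMO1 in demethylation, differed by -0.10 ± 0.14 and -0.10 ± 0.23, and SC5D, the sterol desaturase near the end, by -0.26 ± 0.16. The adjusted p was 1.00 for each of these 10 enzymes (limma, Benjamini-Hochberg).

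TM7SF2 had the lowest difference of the 12. Its log2 values were 5.43, 5.98 and 5.96 in deficient pigs 1, 2 and 3, against 5.95, 6.36 and 6.20 in adequate pigs 5, 6 and 7. Pig 1 was lowest, and the other deficient pigs lay within the adequate range. SC5D was at 7.62, 7.37 and 7.68 in the deficient pigs, against 7.68, 7.96 and 7.80 in the adequate pigs. Here the groups met at deficient pig 3 and adequate pig 5, and overlapped only there.

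Between excess and adequate pigs 8 of 12 enzymes were lower, with a median of -0.10, beside 49.8% of all probe sets lower and a median of 0.00. Without excess pig 11, 7 were lower and 5 higher (median -0.02). MVK alone reached an unadjusted p below 0.05, a level that 3.56% of all probe sets reached, and did not pass the adjusted threshold. Its values were 5.00, 5.11 and 4.93 in excess pigs 9, 10 and 11, against 4.78, 4.93 and 4.70 in adequate pigs 5, 6 and 7 (log2 difference 0.21 ± 0.08, SE, limma adjusted p = 0.757, and 0.25 without pig 11). Excess pig 11 and adequate pig 6 were level at 4.93, and MVK too was under the array-wide median. In no enzyme were the excess pigs wholly above or below the adequate pigs, which held for 7.03% of all probe sets.

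Leaving out pig 11 moved FDPS toward 0 and CYP51 away from it. FDPS was at 7.15, 7.11 and 6.31 in excess pigs 9, 10 and 11, against 7.36, 7.21 and 7.10 in the adequate pigs. Its difference was -0.36 ± 0.22 (SE) with pig 11 and -0.09 without it. CYP51 was at 7.19, 7.14 and 6.83 in the excess pigs, against 6.81, 7.08 and 6.92 in the adequate pigs, a difference of 0.12 ± 0.14 that became 0.23 without pig 11. HSD17B7 turned sign, at 0.23 with pig 11 and -0.06 without it.

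The deficient pigs were lower than the excess pigs on 8 of 12 enzymes, with a median of -0.07, and on 10 of 12 with a median of -0.13 when pig 11 was left out. All probe sets had a median of 0.00, with 50.0% lower, and 49.2% lower without pig 11. CYP51 had the smallest unadjusted p of the 12. Its values were 6.60, 6.60 and 6.97 in deficient pigs 1, 2 and 3, against 7.19, 7.14 and 6.83 in excess pigs 9, 10 and 11 (log2 difference -0.33 ± 0.14, SE, limma adjusted p = 0.872, and -0.44 without pig 11). Deficient pig 3 lay above excess pig 11, the single overlap between these groups. None of the 12 reached an unadjusted p below 0.05, against 4.08% of all probe sets, and none was wholly apart, against 6.47%. The deficient and excess comparisons against adequate pigs share those 3 animals, so the counts are not independent of each other.

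**Figure D3:**
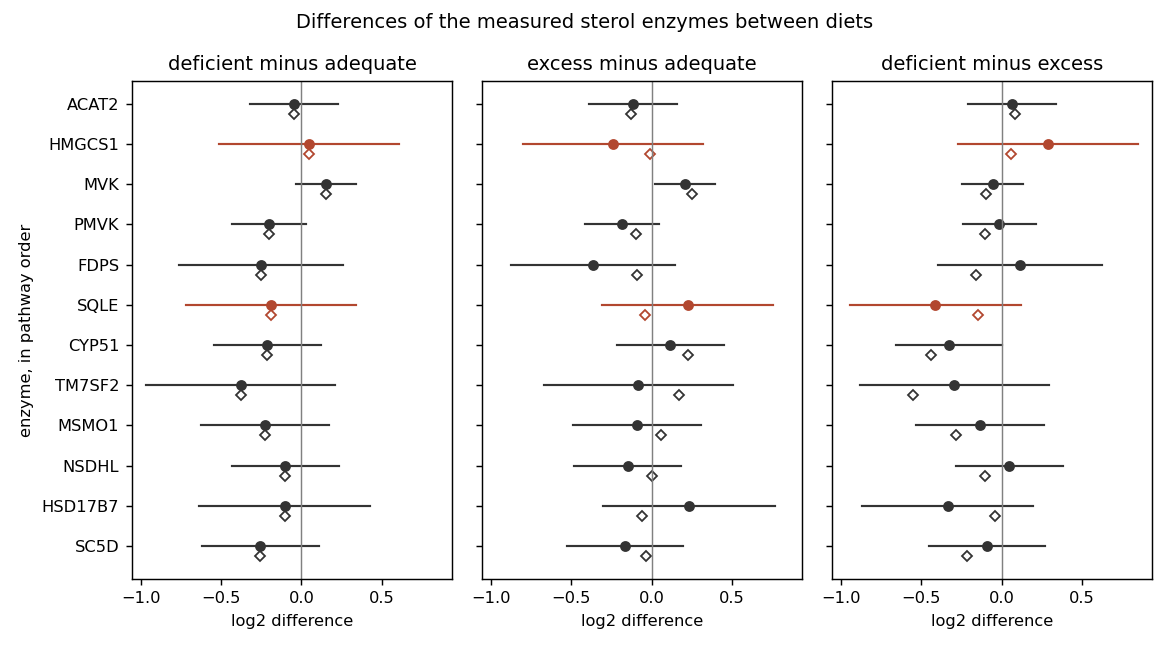
Log2 differences of the 12 measured enzymes in pathway order for the 3 comparisons. Filled circles with lines are the limma difference and its 95% interval, open diamonds are the difference without excess pig 11, and HMGCS1 and SQLE are in red. All intervals except that of MVK in excess minus adequate pigs cross 0, and the diamonds of HMGCS1 and SQLE lie near 0 in excess minus adequate pigs.

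The mean of the 12 enzymes was 5.90, 5.93 and 6.14 in deficient pigs 1, 2 and 3, 6.16, 6.16 and 5.94 in excess pigs 9, 10 and 11, and 6.09, 6.23 and 6.08 in adequate pigs 5, 6 and 7. Deficient pigs 1 and 2 and excess pig 11 were the lowest, and deficient pig 3 lay among the adequate pigs. Adequate pig 6 was highest of all.

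**Figure D4:**
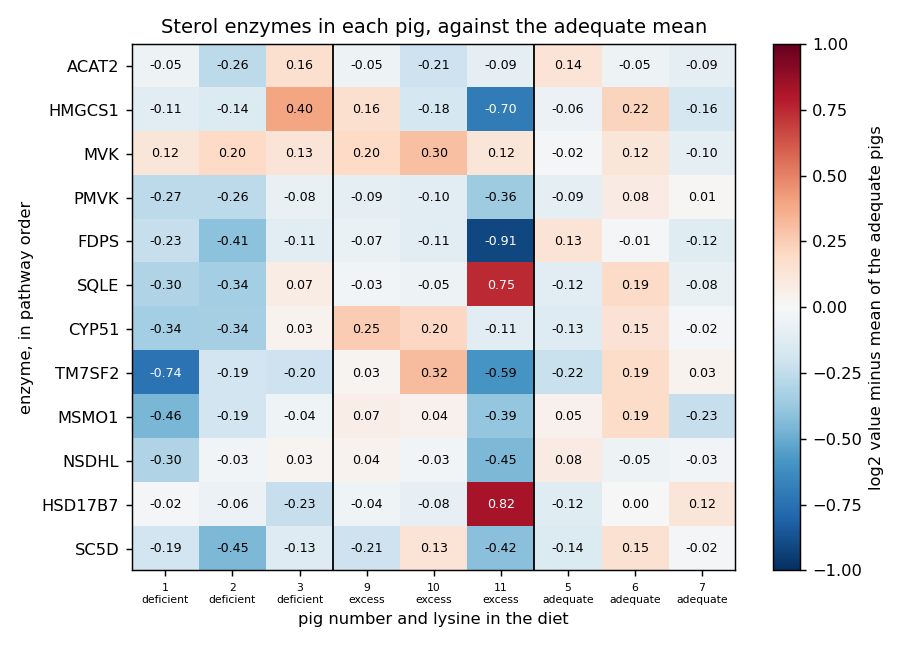
Log2 value of each of the 12 enzymes minus the mean of the adequate pigs, for each pig, with enzymes in pathway order down the page. The strongest cells are in excess pig 11, at -0.91 for FDPS, 0.82 for HSD17B7 and 0.75 for SQLE, and pig 1 has -0.74 for TM7SF2.

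The likeness of HMGCS1 and SQLE across pigs depended on pig 11. Over all 9 arrays Pearson's r between them was -0.42 and Spearman's rho 0.12, and over the other 8 arrays r was 0.70 and rho 0.60. These arrays share a diet in groups of 3, and the values describe them without a test. Among 6833 other genes the closest to HMGCS1 were PHF12 at r = 0.98 over 9 arrays and SPOCK2 at 0.97 without pig 11. HMGCS1 ran with ERLIN2 at r = 0.91 over 9 arrays and 0.85 without pig 11, with SCAP at 0.86 and 0.76, and with INSIG1 at 0.83 and 0.71. With MARCH6 it was 0.83 and 0.52, and with UBXN8 0.29 and 0.06. With FDPS it was 0.76 and 0.31, with TM7SF2 0.41 and 0.08, with MVK 0.06 and 0.10, and with HSD17B7 -0.83 and -0.51. For SQLE, the values over 8 arrays were 0.89 with PMVK, 0.81 with CYP51 and 0.76 with MSMO1, while over all 9 they were -0.16, 0.30 and -0.07. SQLE with MVK gave -0.03 over 8 arrays and -0.01 over 9, and with HSD17B7 -0.13 and 0.80. With the SD over each array's probe sets as a covariate, the SE of deficient minus adequate was 0.10 for HMGCS1, in place of 0.24. For SQLE it was 0.20, in place of 0.23. The part of the array SD in these correlations was not tested.

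The genes most like the pair were found by Pearson's r with the mean of their centred values over 9 arrays, among 6833 other genes at or above the median level. They were BHLHE41 (0.95), NEU3 (0.94), SKIL (0.93), EBPL (0.92) and MARCH8 (0.92), and the most opposed were DMTF1 (-0.83), MRLC2 (-0.81) and EYA4 (-0.81). Without pig 11 the closest were NEU3 (0.98), TYK2 (0.97), FLAD1 (0.97), POLR3E (0.96) and BCL9L (0.96), so NEU3 alone was in both sets. These are the extremes of many genes over few arrays. Among the listed enzymes and regulators CYP51 reached 0.63, ERLIN2 0.60, SCAP 0.53 and MSMO1 0.52 over 9 arrays, and 0.65, 0.87, 0.78 and 0.66 without pig 11. Their places among the 6833 genes were 335, 437, 647 and 696 over 9 arrays. Without pig 11 the places were 1207, 166, 488 and 1183. FDPS, NSDHL and MARCH6 were at 0.15, 0.15 and 0.13 over 9 arrays, and 0.49, 0.39 and 0.51 without pig 11. HSD17B7 was lowest of the listed genes, at -0.01 over 9 arrays and -0.37 without pig 11.

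Of the SREBP machinery no measured gene separated the diets. Of 12 listed genes 5 were measured, and SREBF1 and SREBF2, which encode the factors themselves, were not analysed here. All 5 were lower in deficient than in adequate pigs, with a median of -0.09, beside 47.0% of all probe sets lower. None of the 5 passed an adjusted p of 0.05 (limma). INSIG1, the sterol-sensitive anchor and itself a target of SREBP in mammalian cells, was at 5.18, 5.27 and 5.66 in deficient pigs 1, 2 and 3, 5.94, 5.36 and 4.92 in excess pigs 9, 10 and 11, and 5.55, 5.53 and 5.30 in adequate pigs 5, 6 and 7. Excess pigs held both its highest and its lowest value, and the groups overlapped. Deficient minus adequate was -0.09 ± 0.25 (SE) for INSIG1 and -0.09 ± 0.14 for SCAP, the escort of SREBP. The other SCAP probe set differed by -0.10. ERLIN2, a membrane protein of sterol-regulated degradation, differed by -0.06 ± 0.31, UBXN8, which acts in degradation at the endoplasmic reticulum, by -0.10 ± 0.08 and the ubiquitin ligase MARCH6, which degrades SQLE protein in human cells, by -0.03 ± 0.12. Between excess and adequate pigs all 5 were lower as well, with a median of -0.10, beside 49.8% of all probe sets lower. Once excess pig 11 was left out, 4 were higher and 1 was lower (median 0.04), beside 48.8% of all probe sets lower. Between deficient and excess pigs 3 were higher and 2 lower (median 0.05), beside 50.0% of all probe sets lower. Without pig 11 all 5 were lower in the deficient pigs (median -0.10), beside 49.2%.

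Branches that use mevalonate products without making sterols were tested as a separate list of 11 genes, 9 of them measured. Between deficient and adequate pigs 6 of 9 were higher, with a median of 0.06, and none reached an unadjusted p below 0.05, against 1.85% of all probe sets. Between excess and adequate pigs 8 of 9 were lower, with a median of -0.22, or 6 of 9 with a median of -0.02 without pig 11, beside 49.8% of all probe sets lower. GGPS1 was the 1 gene wholly below the adequate pigs there, against 7.03% of all probe sets wholly apart. Between deficient and excess pigs 8 of 9 were higher, with a median of 0.16, beside 50.0% of all probe sets lower. In that comparison 2 genes reached an unadjusted p below 0.05, against 4.08% of all probe sets, and the same 2 were wholly apart, against 6.47%. GGPS1, which makes geranylgeranyl diphosphate, was at 8.90, 8.66 and 8.92 in deficient pigs 1, 2 and 3, against 8.47, 8.47 and 7.57 in excess pigs 9, 10 and 11 (0.66 ± 0.23, SE, limma adjusted p = 0.872, and 0.36 without pig 11). The deficient pigs lay wholly above the excess pigs. PDSS1, which makes the side chain of coenzyme Q, was at 6.43, 6.77 and 6.45 in deficient pigs, against 6.36, 6.23 and 5.59 in excess pigs, also wholly apart (0.49 ± 0.21, adjusted p = 0.872, and 0.25 without pig 11). DHDDS, of dolichol synthesis, differed by 0.43 ± 0.20 with overlap, or 0.35 without pig 11. In this comparison as a whole, 6 of 9 were higher without pig 11, with a median of 0.07.

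Sterol uptake and transport genes, 9 of 11 measured, were lower in 8 of 9 cases between deficient and adequate pigs, with a median of -0.05, beside 47.0% of all probe sets lower. Between excess and adequate pigs 8 of 9 were lower too, with a median of -0.18, or 7 of 9 with a median of -0.06 without pig 11, beside 49.8%. NPC1, which releases cholesterol from lysosomes, was at 6.44, 6.34 and 6.55 in deficient pigs 1, 2 and 3, 6.59, 6.58 and 6.06 in excess pigs 9, 10 and 11, and 6.74, 6.62 and 6.74 in adequate pigs 5, 6 and 7. On NPC1 and on its partner NPC2 both other groups lay wholly below the adequate pigs, as 2 of 9 genes in each comparison, against 6.84% of all probe sets wholly apart with deficient and 7.03% with excess lysine. Deficient minus adequate was -0.25 ± 0.14 (SE) for NPC1 and -0.16 ± 0.17 for NPC2, and excess minus adequate was -0.29 ± 0.14 and -0.32 ± 0.17, or -0.11 and -0.13 without pig 11. Neither passed limma's adjusted threshold (1.00 with deficient and 0.757 with excess lysine for both). STARD3, a lipid transfer protein of endosomes, differed by -0.06 ± 0.09 with deficient and -0.18 ± 0.09 with excess lysine, or -0.14 without pig 11. The list of efflux and oxysterol sensing genes had 5 of 8 members measured, of which 4 were higher between deficient and adequate pigs (median 0.08), beside 47.0% of all probe sets lower. With excess against adequate lysine 2 were higher and 3 were lower (median -0.08), and so without pig 11 (median -0.02), beside 49.8% of all probe sets lower. There NR1H2, an oxysterol receptor, differed by -0.59 ± 0.29 with excess lysine against adequate lysine and by -0.24 without pig 11. Between deficient and excess pigs all 5 efflux and oxysterol genes were higher (median 0.28), or 4 without pig 11 (median 0.22). Of the 9 uptake and transport genes 7 were higher (median 0.03), or 4 without pig 11 (median -0.01). In that comparison 50.0% of all probe sets were lower, or 49.2% without pig 11.

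Among fatty acid synthesis genes, 9 of 11 were measured. SCD, the stearoyl-CoA desaturase, was at 10.55, 10.70 and 10.24 in deficient pigs 1, 2 and 3, 8.50, 8.15 and 7.74 in excess pigs 9, 10 and 11, and 9.87, 9.21 and 8.11 in adequate pigs 5, 6 and 7. The deficient pigs were wholly above both other groups, as 6.84% of all probe sets were wholly apart from the adequate and 6.47% from the excess pigs, but SCD did not pass the adjusted threshold (limma adjusted p = 1.00 against adequate and 0.872 against excess pigs). Over the list 5 were higher and 4 lower between deficient and adequate pigs (median 0.05), beside 47.0% of all probe sets lower. FADS1, a fatty acid desaturase named after its value was seen, was at -0.45 there. All 9 were lower between excess and adequate pigs (median -0.34), or 6 without pig 11 (median -0.14), beside 49.8%. Between deficient and excess pigs 8 were higher (median 0.22), or 5 without pig 11 (median 0.20), beside 50.0% lower. ME1 was wholly apart in all 3 comparisons, highest with deficient and lowest with excess lysine, against 6.84%, 7.03% and 6.47% of all probe sets. It did not pass the adjusted threshold. By group mean HMGCS1 had the same order as SCD, deficient, adequate and then excess, but none of its groups lay wholly apart. SQLE had the reverse order with pig 11 included. Without pig 11, excess minus adequate was -0.01 for HMGCS1 and -0.04 for SQLE. The difference between SCD and these genes was not tested.

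Markers of other cells were summed up in the same pigs, and no marker passed an adjusted p of 0.05 in any comparison (limma). The mean of 9 fibroblast markers was 9.27 to 9.80 in deficient pigs, 9.10 to 9.80 in excess pigs and 9.87 to 10.18 in adequate pigs, and all 9 were lower with deficient lysine (median -0.42) and with excess lysine (median -0.47, or -0.30 without pig 11), beside 47.0% and 49.8% of all probe sets lower. The mean of 11 adipocyte markers was 6.94 to 7.14 in deficient, 6.44 to 6.64 in excess and 6.57 to 7.02 in adequate pigs. Of these markers 10 of 11 were higher between deficient and adequate pigs (median 0.10), beside 47.0% of all probe sets lower. With excess against adequate lysine 9 of 11 were lower (median -0.41), or 7 of 11 without pig 11 (median -0.38), beside 49.8%. Between deficient and excess pigs 9 of 11 were higher (median 0.575, or 0.48 without pig 11), beside 50.0% of all probe sets lower. There 6 were wholly higher, against 6.47% of all probe sets wholly apart. An unadjusted p below 0.05 was reached by 5 (limma), against 4.08% of all probe sets. One of the 11, THRSP, is also in the fatty acid synthesis list. The 6 endothelial markers averaged 6.50 to 6.79 in deficient, 6.31 to 6.92 in excess and 6.45 to 6.68 in adequate pigs, and the 6 macrophage markers 5.91 to 6.64, 5.68 to 6.57 and 6.27 to 6.42 in the same groups, so the ranges of both lists overlapped. Of the Schwann cell markers SOX10 alone was measured, at 4.29 to 4.60 across all pigs, dimmer than most probe sets. Their part in the levels of HMGCS1, SQLE and the other enzymes was not tested.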

How the data were processed

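The deposited values are the authors' processed expression values on a log2 scale, a base inferred from their range. The submitters' processing notes list GCOS 1.2 and Partek with no role. How background was corrected, probes summarized and arrays normalized, and on which genome build, is not given in the sources used here, so no coordinates or sequences are printed. Per the labels' protocols, TRIzol RNA was copied into amplified sense-strand cDNA, which was labelled with biotin. Of 27558 probe sets 13323 had 1 gene symbol, counting a repeated symbol once, 357 had several and 13878 had none here. Symbols were updated through Entrez IDs in the RefSeq table, where 12925 matched and 7 symbols changed. CYP51A1 was matched as CYP51 through a RefSeq synonym and MARCHF6 as its earlier symbol MARCH6. For genes with several probe sets, the one with the highest mean was used.

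With limma 3.58.1 (R 4.3.3), lmFit and eBayes estimated 1 mean for each diet from all probe sets on 9 arrays. Tests were two-sided, with Benjamini-Hochberg adjustment over all probe sets and a threshold of 0.05. The script was tested on simulated data. Pigs were the replicates, 3 per diet, which limits the precision, with a median SE of 0.13 for log2 differences. Members and lists were chosen with earlier results of these data known. All members were named, with the listed enzymes and regulators of smallest F-test p (up to 6 a list) and up to 3 genes of other lists. ACAT2, MSMO1, NSDHL and HSD17B7 were named beyond this rule to complete the pathway, after their values were seen. Alternatives were another normalization, centring, prior, weights, covariate, filter, annotation and set of arrays.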

Additional observations from a re-analysis of the deposited data

How the results depend on the processing

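HMGCS1 and SQLE stayed short of the adjusted threshold in every comparison under all 17 alternatives, where their smallest adjusted p was 0.328 and their smallest unadjusted p 0.0655. Directions were less firm. HMGCS1 between deficient and adequate pigs was -0.0553 with array quality weights and ran from -0.13 to 0.16 when 1 pig was left out, turning negative without deficient pig 3 (-0.13) or adequate pig 7 (-0.03). Between excess and adequate pigs HMGCS1 was 0.11 with array SD as a covariate and ran from -0.44 to -0.01 with 1 pig left out, and SQLE ran from -0.0384 without excess pig 11 to 0.36. The sign held for SQLE between deficient and adequate pigs (-0.32 to -0.09) and for both genes between deficient and excess pigs (0.01 to 0.49 for HMGCS1, -0.55 to -0.15 for SQLE). The count of 8 enzymes lower between excess and adequate pigs was 5 with that covariate and 7 to 8 with 1 pig left out. The counts of 10 and 8 lower in the deficient pigs were 9 to 11 against adequate and 6 to 10 against excess pigs. Array quality weights called 1 probe set between deficient and adequate pigs and 1 in the F test, and the fit to probe sets with 1 gene symbol called 1 between deficient and excess pigs, where limma had called 0. Leaving out 1 pig called 0 in each. At an unadjusted p below 0.05 the 511, 981 and 1124 probe sets of the 3 comparisons became 233 to 2207, 272 to 4638 and 456 to 3969, counts added after seeing the data, as was leaving pig 11 out of the listed genes and of the likeness. The causes were not tested. Each gene has 1 probe set, so averaging probe sets gives no other value. No paired analysis was possible because each pig ate 1 diet and the labels give no batch, litter or pairing.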
